A study of Mus musculus with 11 samples.

Results

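The genes of MHC class I antigen presentation followed here in regulatory T cells (Tregs) are the class I heavy chains H2-K1 and H2-D1, their light chain B2m, the peptide transporter subunits Tap1 and Tap2, tapasin (Tapbp), the inducible proteasome subunits Psmb8, Psmb9 and Psmb10, and the class I transactivator Nlrc5. They were taken from a table of RPKM values (reads scaled to gene length and library size) as the rows that carry these symbols. All 10 were found among the 10992 genes of the table, and all 10 were among the 10429 genes tested, those with 2 or more libraries at an RPKM of 1 or above. Visceral adipose tissue (VAT) or spleen of 25-week-old males gave the Tregs, sorted for CD3, CD4 and Foxp3 among live cells. Every mouse carried Foxp3-YFPcre, a Cre recombinase driven from the Foxp3 gene, and thus active in cells that express this Treg transcription factor. Srebf2, which encodes the sterol-sensing transcription factor SREBP2, was Srebf2-WT/WT (called WT) or Srebf2-flox/flox (called KO). The libraries analysed were 3 from VAT WT, 3 from VAT KO, 2 from spleen WT and 2 from spleen KO. Whether each library stands for its own mouse is not in the labels, and the spread behind the p-values may be partly technical.

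Class I molecules show peptides from a cell's own proteins to CD8 T cells and to receptors of natural killer cells. Proteasomes cut cytosolic proteins into peptides, the Tap1-Tap2 pump carries these into the endoplasmic reticulum, and tapasin holds the empty heavy chain with B2m at the pump until a peptide fits. Interferons raise most of these genes through transcription factors that include IRF1 and NLRC5, and they exchange the constitutive proteasome subunits Psmb5, Psmb6 and Psmb7 for Psmb8, Psmb9 and Psmb10. T cells express class I constitutively, and NLRC5 is known to maintain it there.

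Of the 10 genes, 7 lie on chromosome 17 of the mouse genome (RefSeq, GRCm38.p6, which is mm10). Within the MHC, Psmb9, Tap1, Psmb8 and Tap2 stand side by side in 34292 bases (chr17:34182030-34216321). H2-K1 (chr17:33996012-34000619) and Tapbp (chr17:33919478-33929290) lie on one side of them and H2-D1 (chr17:35263094-35267497) on the other. B2m is on chromosome 2 (chr2:122147687-122153082), and Psmb10 (chr8:105935728-105938392) and Nlrc5 (chr8:94434335-94527272) are on chromosome 8. Psmb9 and Tap1 are read away from each other, with 225 bases between their starts.

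Upstream sequences are shown for 5 genes: Tap1 and Psmb9, called between tissues below, and H2-K1, H2-D1 and B2m, not called in the main fit. They are the 250 bases before the RefSeq start of H2-K1 (minus strand, chr17:34000348-34000597), H2-D1 (plus strand, chr17:35262844-35263093) and B2m (plus strand, chr2:122147437-122147686), and the whole stretch between Psmb9 and Tap1 (plus strand, the strand of Tap1, chr17:34187331-34187555). The start used for H2-K1 is not the outermost one of the gene, so its window lies inside the gene's listed span. Each is written 5′ to 3′ on the strand named. Capitals mark CCAAT or its reverse complement ATTGG, the letters of the box bound by NF-Y. In B2m they also mark GAAANNGAA, a form of the core letters of the interferon-stimulated response element.
H2-K1: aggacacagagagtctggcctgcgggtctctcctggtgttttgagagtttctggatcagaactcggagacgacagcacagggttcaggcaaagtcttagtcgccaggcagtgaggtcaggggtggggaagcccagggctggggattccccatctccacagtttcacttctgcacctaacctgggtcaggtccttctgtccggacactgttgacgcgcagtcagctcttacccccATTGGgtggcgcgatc
H2-D1: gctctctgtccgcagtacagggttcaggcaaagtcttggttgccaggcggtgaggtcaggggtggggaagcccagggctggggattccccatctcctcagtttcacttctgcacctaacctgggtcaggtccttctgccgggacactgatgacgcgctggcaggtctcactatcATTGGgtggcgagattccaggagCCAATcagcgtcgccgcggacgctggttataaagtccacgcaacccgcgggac
B2m: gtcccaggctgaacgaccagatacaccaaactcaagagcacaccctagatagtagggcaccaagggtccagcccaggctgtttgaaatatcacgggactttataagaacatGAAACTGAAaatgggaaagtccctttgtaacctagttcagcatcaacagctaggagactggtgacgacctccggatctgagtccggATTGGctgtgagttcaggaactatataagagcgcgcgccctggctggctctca
Psmb9-Tap1: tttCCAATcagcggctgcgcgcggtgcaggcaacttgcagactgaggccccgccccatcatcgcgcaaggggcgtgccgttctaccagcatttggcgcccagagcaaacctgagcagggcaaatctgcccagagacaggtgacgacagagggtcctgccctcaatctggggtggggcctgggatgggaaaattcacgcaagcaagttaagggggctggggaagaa
The H2-K1 and H2-D1 sequences aligned over 177 columns, of which 161 were identical (91%). Promoter windows of 300 bases, from 250 before to 50 after the start, were listed by RefSeq for 8 of the 10 genes, all but Tap2 and Nlrc5. On either strand CCAAT was in 6 of these 8 (H2-K1, H2-D1, B2m, Tap1, Tapbp and Psmb9) and in 37.4% of all 32851 windows of this length. TGACG, the letters of a cyclic AMP response site core, was in 5 (H2-K1, H2-D1, B2m, Tap1 and Psmb9) and in 20.8% of all windows. GAAANNGAA was in 1 of the 8, B2m, against 8.56% of all. Only these letters were searched, so an interferon-stimulated response element spelled otherwise would be missed. The H2-K1 and H2-D1 sequences both hold agtttcacttct, which these letters do not match on either strand. The count therefore does not show that such an element is absent there. The sterol element letters TCACNCCAC were in none of the 8, against 1.24% of all. These are matches of letters, not measured binding, and windows of neighbouring genes can overlap.

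The labels were first set against the data. In VAT, Srebf2 had RPKM values of 0.263, 0.600 and 1.23 with KO and 16.6, 15.6 and 30.5 with WT. In spleen it was at 2.59 and 1.59 in spleen KO against 10.5 and 23.2 in spleen WT. Foxp3 was found in all libraries, with 13.3 to 16.4 RPKM where the cells came from VAT and 6.97 to 8.87 for spleen. Spleen WT replicate 2 stood apart from the other spleen libraries: its log2(RPKM + 1) values correlated with theirs at r = 0.927 to 0.932 across genes, while those 3 correlated with one another at 0.970 to 0.978. Values that change with its removal are given below. Markers of other cells were read as summed RPKM. The myeloid markers (5 of 16 in the table) summed to 14.99 to 49.4 in VAT and 180 to 241 in spleen, mostly Ctss, while Csf1r and Adgre1 stayed at or below 1.45 in all libraries. Fcer1g overlapped between the tissues. Xcr1 went the other way, at 1.60 to 4.44 in VAT and 0.008 to 0.223 in spleen. The class II genes (10 of 10) summed to 58.6 to 184 in VAT and 105 to 142 in spleen, and the B cell markers (6 of 12) to 13.9 to 71.3 and 27.3 to 41.0, with VAT WT replicate 2 the highest for both. The CD8 T cell and natural killer cell markers (3 of 7) summed to 74.7 to 191 in VAT and 35.03 to 61.4 in spleen, with Cd8a at or below 1.99. Cd8b1 overlapped between the tissues, at 4.90 to 17.016 in VAT and 10.8 to 18.7 in spleen. The higher sum in VAT thus came from Nkg7. In spleen KO replicate 3 Nkg7 was at 15.8, below Cd8b1 at 18.7. Stromal and endothelial markers (2 of 7), mostly Pecam1, summed to 4.80 to 12.1 in VAT and 16.99 to 35.1 in spleen, and 0 of the 4 adipocyte markers were in the table. The part of such cells in the results below was not tested. In bulk libraries fewer cells of a type and less RNA per cell cannot be told apart.

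The class I complex itself was among the most abundant messages of these Tregs. Ranked by RPKM among the 10992 genes of each library, B2m was at rank 2 in the VAT and rank 1 in the spleen libraries, and H2-D1 at rank 3 and rank 2. H2-K1, H2-D1 and B2m together made up 1.65 to 2.21% of the summed RPKM of a library. The remaining 7 genes were lower, and their order differed between tissues. In VAT WT the group means ran from Tapbp (94.2 RPKM), Psmb8 (89.1) and Tap2 (87.4), which lay within their spread of one another, through Nlrc5 (66.2), Tap1 (36.6) and Psmb9 (23.8) to Psmb10 (16.6). In spleen WT the order was Psmb8 (145), Tapbp (140.5), Tap2 (135.5), Psmb10 (66.7), Tap1 (60.3), Psmb9 (59.7) and Nlrc5 (44.5), and there the first 3 and the last 4 lay within their spread of one another.

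**Figure D1:**
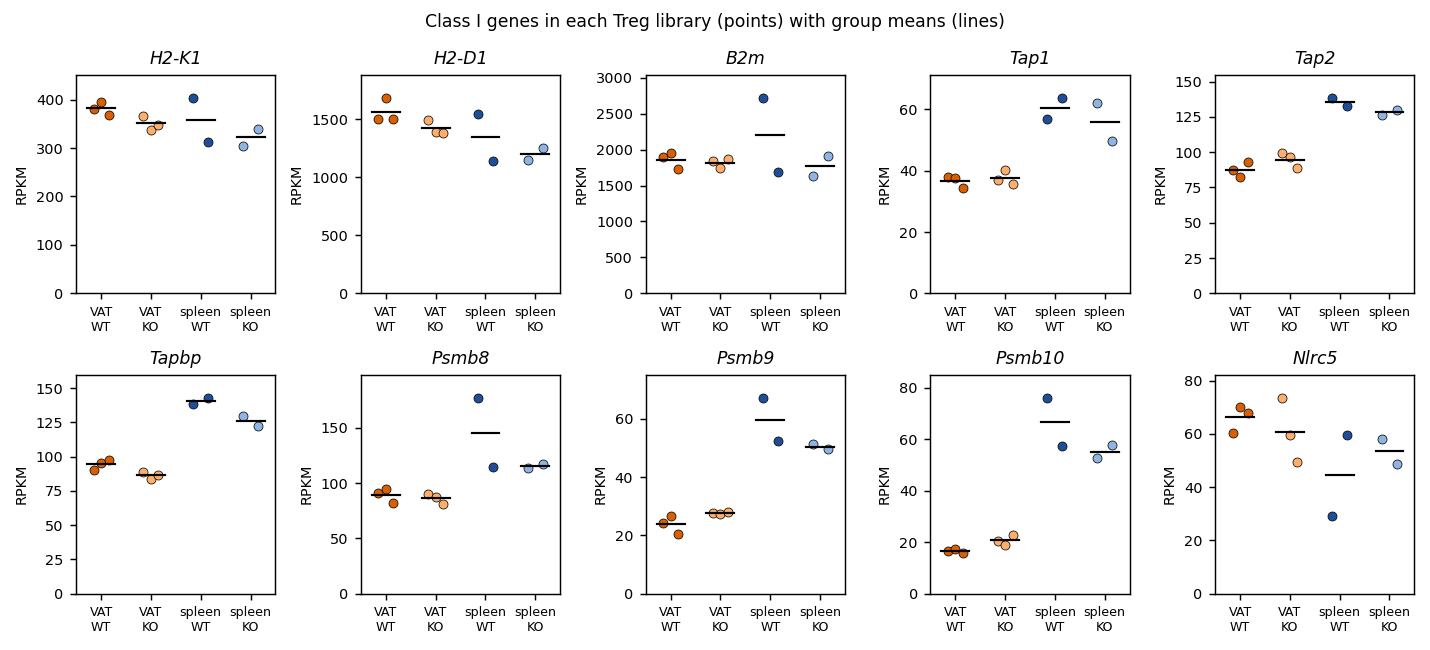
RPKM of the 10 genes in each of the 10 libraries, coloured by group of tissue and genotype. The spleen libraries lie above all VAT libraries for Tap1, Tap2, Tapbp, Psmb8, Psmb9 and Psmb10, while H2-K1, H2-D1 and B2m overlap between tissues.

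The tissues were compared first, within each genotype. In WT mice 6 of the 10 genes were lower in VAT than in spleen Tregs and none was higher by limma at an adjusted p under 0.05, while 15.4% of all genes tested were called lower and 10.7% higher. In KO mice 5 of the 10 were lower and none higher, against 6.94% and 7.65% of all genes. The genes called were the inducible proteasome subunits, the transporter and tapasin (Psmb8 in WT only, with its interaction given below). The chains, B2m and Nlrc5 were not called. Quantile normalization, which sets values by rank, gave calls lower in VAT for H2-D1 and B2m in both genotypes. Each held the same rank in all libraries of a tissue (B2m 2 in VAT and 1 in spleen, H2-D1 3 and 2). That left no spread within a tissue, so these calls reflect only the ranks. H2-D1 was called higher in VAT in KO when only the compared groups were fitted (adjusted p = 0.0488), and Nlrc5 was called higher in WT under median ratio scaling. The median change of the 10 genes was -0.60 on the log2(RPKM + 1) scale in WT, against -0.12 over all genes tested, and -0.42 against -0.09 in KO. Median ratio scaling moved the median of all genes by 0.135 in WT. Taken relative to the median of all genes, the WT changes were -1.81 for Psmb10, -1.16 for Psmb9, -0.58 for Tap1, -0.55 for Psmb8, -0.51 for Tap2, -0.45 for Tapbp, -0.09 for B2m, 0.23 for H2-K1, 0.35 for H2-D1 and 0.77 for Nlrc5.

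**Figure D2:**
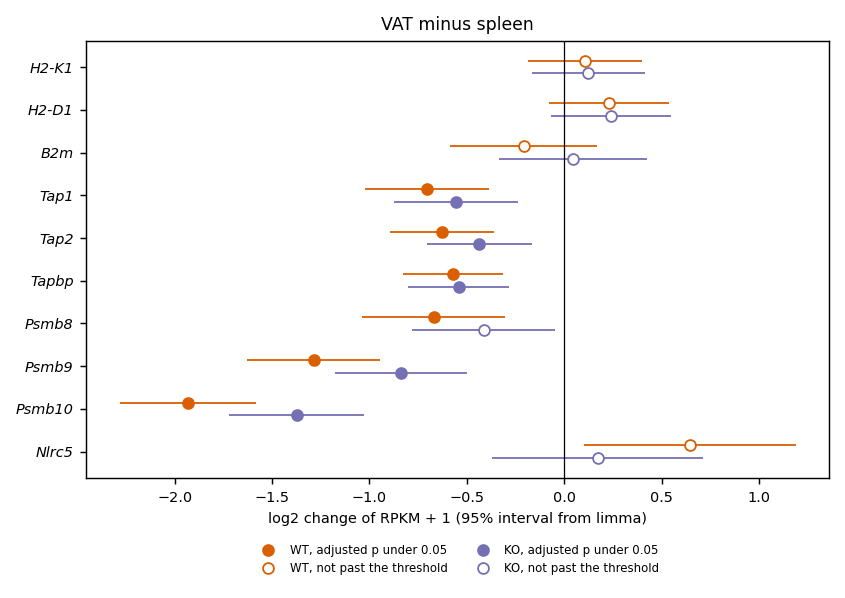
Change from spleen to VAT, as limma log2(RPKM + 1) differences with 95% intervals, for the 10 genes in WT and in KO mice. Psmb10 has the lowest value of the 10 in both genotypes, at -1.93 and -1.37, and the intervals of H2-K1, H2-D1 and B2m include 0. Under quantile normalization H2-D1 and B2m were called lower in VAT, but their fixed ranks left no spread within a tissue there. With only the compared groups H2-D1 was called higher in KO.

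Among the proteasome genes, Psmb10, the inducible trypsin-like subunit, differed most. It was at 16.8, 17.4 and 15.6 RPKM in VAT WT, 20.4, 18.9 and 22.8 in VAT KO, 75.9 and 57.5 in spleen WT, and 52.6 and 57.8 in spleen KO. The lowest spleen library was above the highest VAT library. The change from spleen to VAT was -1.93 ± 0.16 (log2, SE) in WT (limma, adjusted p = 2.58e-06), a 4.02-fold higher mean in spleen, and -1.37 ± 0.16 in KO (adjusted p = 8.34e-05), 2.66-fold.

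Psmb9, the inducible subunit that replaces Psmb6, followed the same order of tissues. It was at 24.3, 26.5 and 20.6 RPKM in VAT WT, 27.6, 27.3 and 28.2 in VAT KO, 67.0 and 52.4 in spleen WT, and 51.2 and 49.4 in spleen KO. Again no VAT library reached the lowest spleen library. The change was -1.29 ± 0.16 in WT (limma, adjusted p = 7.66e-05), a 2.51-fold higher mean in spleen, and -0.84 ± 0.16 in KO (adjusted p = 0.00323), 1.82-fold. Psmb9 and Psmb10 were called in both genotypes in each of the 10 fits that left out 1 library, and in each of the 8 other alternatives run.

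Psmb8, the inducible chymotrypsin-like subunit, was at 91.4, 94.3 and 81.6 RPKM in VAT WT, 90.0, 87.6 and 81.5 in VAT KO, 177 and 114 in spleen WT, and 113 and 117 in spleen KO. The tissues did not overlap, but 1 spleen WT library was far above the other spleen libraries. The WT change was -0.67 ± 0.17 (limma, adjusted p = 0.012), and without spleen WT replicate 2 it was -0.36 (adjusted p = 0.085). It was also not called when only the compared groups were fitted (adjusted p = 0.0648). The KO change was -0.41 ± 0.17 (adjusted p = 0.13, 95% interval -0.78 to -0.05). It was called once either spleen WT library was left out (adjusted p = 0.014 and 0.0139), under quantile normalization (0.0247) and with only the compared groups (0.0158).

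Each inducible subunit takes the place of a constitutive one, and RPKM, being per length, lets both be set side by side. The ratio of Psmb10 to Psmb7 was 1.07 to 1.79 in the 6 VAT libraries and 3.17 to 4.33 in the 4 spleen libraries. The ratio of Psmb9 to Psmb6 was 0.512 to 0.669 in VAT and 0.783 to 1.03 in spleen. The ratio of Psmb8 to Psmb5 was 1.29 to 1.51 in VAT and 1.29 to 1.5002 in spleen. Thus the tissues overlapped in the Psmb8 ratio and did not in the other ratios, of which no test was made. Of the 50-base words in the Psmb5 transcripts 54.1% occur in other genes, most of them in the near copy Gm3375, so its level is uncertain.

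**Figure D3:**
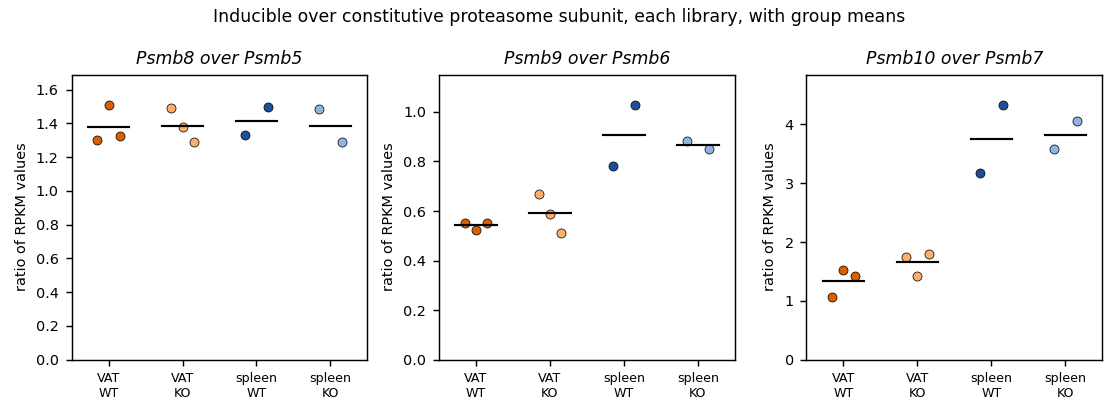
Ratio of RPKM of each inducible proteasome subunit to the constitutive subunit it replaces, per library and by group. The ratios of Psmb9 and Psmb10 are higher in all 4 spleen libraries than in all 6 VAT libraries, and the ratio of Psmb8 lies between 1.29 and 1.51 in both tissues.

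The transporter genes were also lower in VAT. Tap1 was at 38.0, 37.5 and 34.3 RPKM in VAT WT, 36.9, 40.2 and 35.6 in VAT KO, 56.9 and 63.8 in spleen WT, and 62.3 and 49.7 in spleen KO. Tap2 was at 87.1, 82.3 and 92.9 RPKM in VAT WT, 99.0, 96.3 and 88.4 in VAT KO, 138 and 133 in spleen WT, and 127 and 129.8 in spleen KO. For both subunits all spleen libraries were above all VAT libraries. In WT the change was -0.70 ± 0.15 for Tap1 (limma, adjusted p = 0.00389) and -0.63 ± 0.12 for Tap2 (adjusted p = 0.00272). In KO it was -0.56 ± 0.15 for Tap1 (adjusted p = 0.0227) and -0.44 ± 0.12 for Tap2 (adjusted p = 0.0321).

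Tapasin, which bridges the empty heavy chain to the pump, changed by a similar size. It was at 90.0, 95.1 and 97.6 RPKM in VAT WT, 89.0, 83.4 and 86.5 in VAT KO, 138 and 143 in spleen WT, and 129.8 and 122 in spleen KO. No VAT library reached the lowest spleen library. The change was -0.57 ± 0.12 in WT (limma, adjusted p = 0.00393) and -0.54 ± 0.12 in KO (adjusted p = 0.00833). The KO calls of these genes depended on the processing and on single libraries. Tap1 was not called under quantile normalization (adjusted p = 0.062), and Tap2 was not called under median ratio scaling (0.103). Tap1 was not called without VAT KO replicate 1, VAT KO replicate 3 or spleen KO replicate 2. Tap2 was not called without VAT WT replicate 1, any one VAT KO library or either spleen KO library. Tapbp was not called without spleen KO replicate 2 (adjusted p = 0.0916) or replicate 3 (0.0509). The count of 5 in KO was 2 without spleen KO replicate 2, and 3 without spleen KO replicate 3, VAT KO replicate 1 or VAT KO replicate 3.

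With both genotypes pooled, Tap1, Tap2, Tapbp, Psmb8, Psmb9 and Psmb10 were each higher in all 4 spleen libraries than in all 6 VAT libraries, which 15.4% of all genes tested also were. Some of these genes share sequence with others, and the levels are uncertain to that extent. Of their 50-base transcript words, 23.2% occur in other genes for Tapbp (with the overlapping Gm19412), 11.9% for Psmb8 (with Gm20496), 11.6% for Tap2, 4.19% for Psmb9 (with Tap1) and 0% for Psmb10.

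The heavy chains, which carry the peptide, were not called. H2-D1 was called higher in VAT in KO with only the compared groups. Its lower call under quantile normalization came from a fixed rank in each tissue, without spread. H2-D1 was at 1504.7, 1682.9 and 1502.8 RPKM in VAT WT, 1492.9, 1385.9 and 1383.4 in VAT KO, 1544 and 1144 in spleen WT, and 1152.8 and 1251.8 in spleen KO. H2-K1 was at 382, 396 and 369 RPKM in VAT WT, 367, 338 and 349 in VAT KO, 403 and 312 in spleen WT, and 305 and 339.7 in spleen KO. In WT the spleen libraries lay on both sides of VAT for H2-K1, and in KO the VAT libraries lay above spleen for H2-D1. The change from spleen to VAT was 0.23 ± 0.14 for H2-D1 in WT (limma, adjusted p = 0.247, 95% interval -0.08 to 0.54) and 0.24 ± 0.14 in KO (adjusted p = 0.298, interval -0.07 to 0.55). For H2-K1 it was 0.11 ± 0.13 in WT (adjusted p = 0.594, interval -0.19 to 0.40) and 0.12 ± 0.13 in KO (adjusted p = 0.602, interval -0.17 to 0.42). Without spleen WT replicate 2 the WT change of H2-D1 was 0.45 and was called higher in VAT (adjusted p = 0.0127).

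B2m, the light chain shared by class I molecules, was at 1893.3, 1951.3 and 1731.1 RPKM in VAT WT, 1846.7, 1745.5 and 1865.1 in VAT KO, 2717.1 and 1694.5 in spleen WT, and 1625.5 and 1906.8 in spleen KO. The tissues overlapped, and spleen WT replicate 2 was above all other libraries. The change was -0.21 ± 0.17 in WT (limma, adjusted p = 0.403, 95% interval -0.59 to 0.17) and 0.05 ± 0.17 in KO (adjusted p = 0.901, interval -0.33 to 0.43). In WT its direction turned on that library, with 0.13 without it and -0.55 (adjusted p = 0.00319, called) without spleen WT replicate 3. The ratio of B2m to the sum of both heavy chains was 0.925 to 1.08 in VAT and 1.11 to 1.40 in spleen, and that of H2-D1 to H2-K1 was 3.94 to 4.25 in VAT and 3.67 to 3.83 in spleen, without overlap. Of the 50-base words in their transcripts, 12.8% for H2-D1 and 9.63% for H2-K1 occur in other genes, among them each other and members of the H2-Q family, so reads may have been split between them.

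Nlrc5, which drives transcription at class I promoters, was at 60.5, 70.0 and 68.1 RPKM in VAT WT, 73.4, 59.6 and 49.5 in VAT KO, 29.3 and 59.8 in spleen WT, and 58.2 and 48.7 in spleen KO. VAT WT lay above spleen WT, by a narrow margin to 1 of its libraries, and the KO groups overlapped. The change was 0.65 ± 0.25 in WT (limma, adjusted p = 0.0754) and 0.17 ± 0.25 in KO (adjusted p = 0.717), so neither was called. The WT change was 1.15 without spleen WT replicate 3 (adjusted p = 0.00105) and 0.14 without replicate 2. The Nlrc5 span overlaps the gene 9330175E14Rik, and the library kit does not mark strand. Of the 50-base words in the Nlrc5 transcripts, 0.338% occur in that gene, and reads of this shared stretch could not be told apart.

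The study asked what loss of Srebf2 does in VAT Tregs, and none of the 10 genes was called between VAT KO and VAT WT by limma (adjusted p 0.708 to 1), nor did any have an unadjusted p under 0.05. Of all genes tested, 0.422% were called. The median change of the 10 was -0.04 against 0.02 over all genes. The groups did not overlap for 2 genes that were higher in KO, as for 8.97% of all genes tested, and for 3 that were lower, as for 6.16% of all. Psmb9 and Psmb10 were higher in each VAT KO library than in any VAT WT library, with means of 27.7 ± 0.409 against 23.8 ± 2.98 RPKM (SD, n = 3 each) and 20.7 ± 1.96 against 16.6 ± 0.889. H2-K1, H2-D1 and Tapbp were lower in each VAT KO library, with means of 351 ± 14.7 against 382 ± 13.7, 1420.7 ± 62.5 against 1563.5 ± 103, and 86.3 ± 2.80 against 94.2 ± 3.86. The limma changes were 0.22 ± 0.14 for Psmb9, 0.30 ± 0.14 for Psmb10, -0.12 ± 0.12 for H2-K1, -0.14 ± 0.13 for H2-D1 and -0.13 ± 0.11 for Tapbp. An exact permutation test of 3 against 3 libraries cannot give a p below 0.1. The summed myeloid markers were 14.99 to 18.4 RPKM in VAT WT and 22.7 to 49.4 in VAT KO, and the stromal markers 4.80 to 7.63 and 8.93 to 12.1. Ctss carried the first difference, with a mean of 12.9 RPKM in WT and 35.3 in KO, and Pecam1 the second, with 5.63 and 10.4. Ctss was called higher in VAT KO (limma, adjusted p = 0.0449). Csf1r of the myeloid list was also higher in KO, at low means of 0.0557 and 0.128. Fcer1g (0.785 and 1.46) was higher through VAT KO replicate 3, at 3.95, and Adgre1 (0.145 and 0.155) was nearly level. Xcr1 of the myeloid list (3.22 and 2.68) and Vwf of the stromal list (0.234 and 0.174) were lower in KO. The part of such cells in these values was not tested.

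**Figure D4:**
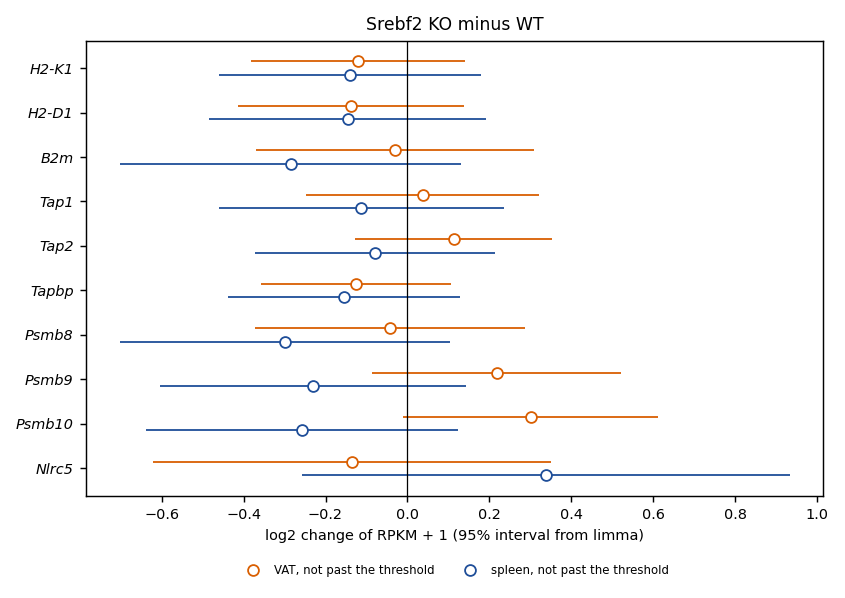
Change from WT to KO, as limma log2(RPKM + 1) differences with 95% intervals, for the 10 genes in VAT and in spleen. No gene was called in either tissue, and Psmb9 and Psmb10 lie above 0 in VAT and below 0 in spleen.

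In spleen, with 2 libraries a group, none of the 10 genes was called between KO and WT (limma, adjusted p 0.665 to 0.856), and none had an unadjusted p under 0.05. Of all genes tested 0% were called, and 873 had an unadjusted p under 0.05. Tap2, Tapbp and Psmb9 were lower in both spleen KO libraries than in either spleen WT library, and the groups overlapped for the other 7 genes. Of all genes tested, 17.5% were lower in this way. The limma changes were -0.08 ± 0.14 for Tap2, -0.15 ± 0.13 for Tapbp and -0.23 ± 0.17 for Psmb9. Leaving out spleen WT replicate 2 took that of Psmb9 to -0.057, and leaving out replicate 3 took it to -0.41. Without spleen WT replicate 3, which leaves spleen WT replicate 2 alone in its group, B2m and Psmb8 were called lower and Nlrc5 higher in spleen KO. Without spleen WT replicate 2 none was called.

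Whether the genotype difference itself differed between the tissues was tested as an interaction in limma, which was called for none of the 10 genes and 0% of all genes tested. Of all genes, 738 had an unadjusted p under 0.05, and of the 10 genes 1 did, Psmb10, with 0.56 ± 0.23 (limma, adjusted p = 0.686), and Psmb9 stood at 0.45 ± 0.22 (adjusted p = 0.713). Psmb8 stood at 0.26 ± 0.24 (adjusted p = 0.847). Without spleen WT replicate 2 the interaction was 0.36 for Psmb10 and 0.27 for Psmb9, and without replicate 3 it was 0.76 and 0.62, none of them called. The tissue difference was thus not shown to differ between WT and KO for these genes.

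The other genes of the pathway were read from a list of 64, of which 60 were in the table and 59 were tested. In WT 6 were higher and 19 lower in VAT than in spleen by limma, with a median of -0.32, and in KO 5 were higher and 10 lower, with a median of -0.24. Over all genes tested the shares were 10.7% higher and 15.4% lower in WT, and 7.65% and 6.94% in KO. Of the 20 regulators tested 2 were higher and 8 lower in WT, and 2 and 5 in KO. Of the 12 peptide supply genes 1 was higher and 5 were lower in WT, and 2 were lower in KO. Of the 13 other class I chains 2 were higher and 5 lower in WT, and 2 and 3 in KO. The endoplasmic reticulum loading and folding genes gave 1 higher and 1 lower of 10 in WT and 1 higher in KO, and the 4 translocation genes gave no call.

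Irf9, the DNA-binding subunit of the type I interferon complex, was lower in VAT, at 7.85 RPKM against 29.7 in spleen in WT. It changed by -1.81 ± 0.19 in WT (limma, adjusted p = 2.18e-05) and -1.39 ± 0.19 in KO (adjusted p = 0.000289). Psme1 and Psme2, the subunits of the PA28 cap that is known to open the proteasome, were 28.015 and 46.2 RPKM in VAT WT against 79.2 and 139 in spleen WT (changes of -1.44 ± 0.17 and -1.54 ± 0.18, adjusted p = 5.6e-05 and 5.26e-05). Psme1 was also lower in KO, by -0.83 ± 0.17 (adjusted p = 0.00553), as was the interferon regulator Irf7, by -1.13 ± 0.19 (adjusted p = 0.0017). The KO means of Psme2 were 56.5 RPKM in VAT and 103 in spleen, so it was lower in VAT there too. Ifngr1, the ligand-binding chain of the interferon gamma receptor, moved in the opposite direction, at 317 RPKM in VAT WT and 136 in spleen WT (1.24 ± 0.17, adjusted p = 0.000174) and at 359 and 133 in KO (1.43 ± 0.17, adjusted p = 8.34e-05). Ero1l, an oxidase of the endoplasmic reticulum, was also higher in VAT, at 46.7 against 8.24 RPKM in WT (2.37 ± 0.20, adjusted p = 2.78e-06) and with a change of 1.59 ± 0.20 in KO (adjusted p = 0.000141).

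**Figure D5:**
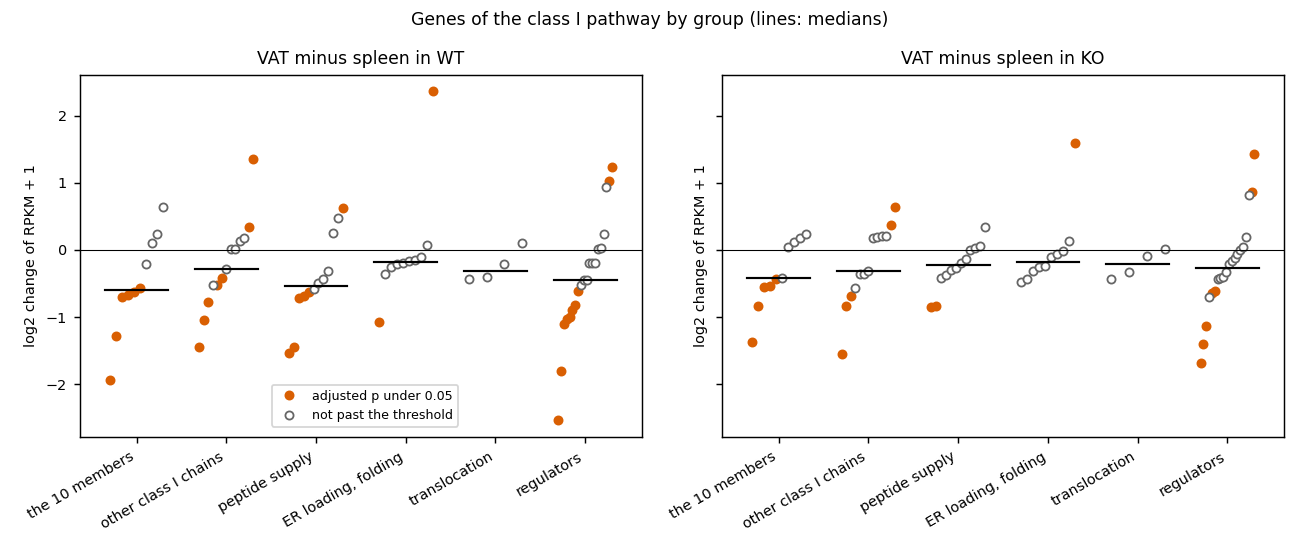
Change from spleen to VAT (limma, log2(RPKM + 1)) in WT and in KO mice for the 10 genes and for the other tested genes of the pathway, by role. Ero1l at 2.37 is the highest value in WT, and of the called regulators 8 lie below 0 and 2 above in WT.

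Between VAT KO and VAT WT none of the 59 other genes was called, and 8 had an unadjusted p under 0.05, as did 767 of the 10429 genes tested. Among those with the smallest p was the tapasin relative Tapbpl (0.43 ± 0.15, limma, adjusted p = 0.433). In spleen none was called, 3 had an unadjusted p under 0.05, and the 2 with the smallest p were Ide, a cytosolic peptidase (0.64 ± 0.17, adjusted p = 0.549), and H2-L (0.65 ± 0.21, adjusted p = 0.581). The level of H2-L is uncertain, for the reasons given under the other observations.

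How the 10 genes varied together over the 10 libraries is given as a description, since libraries share a tissue and a genotype. Pearson's r of log2(RPKM + 1) was 0.99 for Psmb9 with Psmb10, 0.912 for Tap1 with Tap2 and 0.948 for H2-K1 with H2-D1, and -0.797 for Nlrc5 with Psmb8. The last value leans on spleen WT replicate 2, which had the lowest Nlrc5 (29.3 RPKM) and the highest Psmb8 (177) of all libraries. It was not computed without that library. The 5 genes outside the pathway lists with the profile most like the mean of the 10 standardised genes were Tlr12 (r = 0.983), Coro1a (0.978), Xaf1 (0.975), Ppp1ca (0.970) and 1110038F14Rik (0.966), over 10 libraries. The 10 genes did not share a single profile, with r at -0.697 for H2-D1 with Tap1 and -0.694 for Nlrc5 with Psmb9. Likeness to their mean is thus not likeness to each gene.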

How the data were processed

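Tregs were profiled by bulk RNA sequencing of polyA RNA. Per the labels' protocols, cDNA was made with SMART-seq v4 and libraries with Nextera XT, which does not mark strand. STAR and mm10 are named in the submitters' processing notes. How reads were counted, what was done with reads that fit several genes, and the gene models used are not stated there. Per the file headers, what the authors deposited is 1 table with an RPKM per gene for each sample. Steps of 1 read could not be found among low values, so depth is unknown and counting errors are left out. Because class I chains are near copies, the unknown treatment of shared reads can move their levels.

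The labels name 11 samples, of which 10 have a column with their name. Spleen KO replicate 1 was not analysed here, and 1 further sample's column, named in no label, was left out. The design had assumed 11 samples.

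Values were analysed as log2(RPKM + 1), with a pseudocount of 1, so that changes of low genes are understated. One limma model (3.58.1 in R 4.3.3, trend on, robust off) was fitted to the 10429 genes at an RPKM of 1 or above in 2 or more libraries, with 4 group means, 6 residual and 6.44 prior degrees of freedom. Tests were two-sided with Benjamini-Hochberg adjustment over all genes tested, and called means an adjusted p under 0.05. Errors are SDs of RPKM or standard errors of log2 changes. The VAT against spleen and KO against WT comparisons share their libraries. Alternatives were the pseudocount, the filter, quantile normalization, median ratio scaling, the compared groups alone, a replicate block and leaving out each library.

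The members and lists were chosen with earlier results of these data known. Named genes were all 10 members, up to 6 called genes of the pathway list with the smallest p (or 2 where none was called), and the 5 genes most like the members. Of the genes this rule picked, 1 is not reported here. H2-Ke6, which encodes no class I chain, was dropped from the planned list of chains. Entrez identifiers of 10987 genes matched the RefSeq table of GRCm38.p6, from which positions and promoters come. Words of 50 bases were compared between GENCODE transcripts. Promoters were aligned with Biopython 1.88.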

Additional observations from a re-analysis of the deposited data

Results flagged for a closer look

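Psmb9 was picked out because its genotype difference had opposite directions in the tissues. All 3 VAT KO libraries were above all 3 VAT WT libraries, and both spleen KO libraries were below both spleen WT libraries. The interaction was 0.449 on the log2(RPKM + 1) scale (SE 0.222), with a limma adjusted p of 0.713, so the difference between tissues was not called. It was 0.27 without spleen WT replicate 2 and 0.62 without spleen WT replicate 3. The spleen difference was -0.23 with all libraries, -0.057 without that replicate 2 and -0.41 without replicate 3.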

How the results depend on the processing

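Of 754 recomputed values for single genes, 704 were classed as unchanged, 17 lost a call, 13 gained one and 20 turned. Values that turned were counted only as such, though under quantile normalization H2-D1 in both genotypes and B2m in KO also gained a call. Changes of exactly 0, as for H2-D1 and B2m in KO against WT under quantile normalization, were classed as unchanged. Called members in VAT against spleen numbered 6 to 8 in WT and 2 to 6 in KO when 1 library was left out, and 3 in KO with the replicate block. With only the compared groups they numbered 5 in WT and 7 in KO (1 of them higher), under quantile normalization 8 and 7, and under median ratio scaling 7 and 4. The quantile counts include H2-D1 and B2m, which had no spread within a tissue there. Without 1 library, called members numbered 0 to 3 for KO against WT in spleen and averaged over tissues, 0 to 2 for the interaction and 0 to 0 in VAT; the upper values came without spleen WT replicate 3. Where a fit left 1 spleen library in a group, it was assumed to vary like the others. Quantile normalization, which sets values by rank, turned H2-K1 in VAT against spleen to -0.20 in WT and -0.16 in KO, H2-D1 to -0.36 in both, B2m to -0.38 in KO, and Tap2 in spleen KO against WT to 0.024. Median ratio scaling turned Tap1 in VAT KO against WT to -0.0029. Leaving out 1 library gave, in VAT KO against WT, -0.080 to 0.0063 for B2m, -0.012 to 0.074 for Tap1 and -0.28 to 0.0020 for Nlrc5. In spleen KO against WT it gave -0.32 to 0.045 for H2-K1, -0.36 to 0.070 for H2-D1, -0.63 to 0.055 for B2m, -0.61 to 0.013 for Psmb8, -0.16 to 0.84 for Nlrc5 and -0.27 to 0.048 for Tap1. In VAT against spleen it gave -0.55 to 0.13 for B2m and -0.079 to 0.29 for H2-K1 in WT, and -0.068 to 0.16 for B2m in KO. Apart from what the construction shows, the cause was not tested. Whether replicate numbers pair the samples is not known. With group means taken out, 1 of 13 same-numbered pairs correlated over 0.1, as did 1 of 24 other pairs. These values cannot decide it, because the 2 libraries of a spleen group then mirror each other. The replicate block is given here alone, and with it Tap1 and Tap2 were not called between tissues in KO. Unknown read depth limits the precision of low genes.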

Other observations

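Among the other class I chains, 2 were higher in VAT than in spleen, chosen here after their values were seen. H2-L was at 185 RPKM in VAT WT and 72.9 in spleen WT (limma log2 change 1.36, adjusted p = 0.000228), and at 177 and 113 in KO (0.64, adjusted p = 0.0385). H2-Q6 was at 466 and 366 RPKM in WT (0.35, adjusted p = 0.0399), with a change of 0.37 in KO (adjusted p = 0.0466). Chains of this family are near copies of one another, and how the authors' counting split their reads is not given, so these levels are uncertain. H2-L had no entry among the RefSeq genes of GRCm38.p6, so which reads its values count is not known.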
